A study of Homo sapiens with 18 samples.

Results

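This section describes 10 interferon-induced effector genes, MX1, MX2, IFI6, IFI27, IFI35, IFI44, IFI44L, SAMD9, SAMD9L and BST2, among the 58302 genes of the expression table. The genes were listed by symbol and matched to their Ensembl identifiers, and all 10 were found. They were chosen by symbol with their FPKM in both groups already known, so their levels, fold changes and counts of calls are given as a description, and the calls support nothing. PANC-1 cells, a line from a human pancreatic ductal carcinoma, carried lentivirus either with a short hairpin RNA against NAT10 (shNAT10) or with the control (shCtrl). The labels call the control an empty vector, whereas the oligonucleotides listed by the study include a non-targeting hairpin, and whether shCtrl carried a hairpin was not settled from these sources. NAT10 is the acetyltransferase that writes N4-acetylcytidine (ac4C) on RNA. RNA-seq covered 3 libraries per group. acRIP-seq, in which fragmented RNA is pulled down with an ac4C antibody (IP) and sequenced beside its input, covered 3 IP and 3 input libraries per group. Nothing in the labels says that the 3 libraries came from separate cultures, so the spread between them may be technical. Which of the hairpins against NAT10 was used, and whether the cells were a clone or a pool, is not given in the sources used here.

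Type I and type III interferons bind their receptors and activate JAK1 and TYK2, which phosphorylate STAT proteins. Joined by IRF9, these form ISGF3, the factor that binds interferon-stimulated response elements in the promoters of effector genes. Many effector genes are also read by IRF1 without added interferon. MX1 and MX2 are dynamin-like GTPases that block viral nucleocapsids, BST2 (tetherin) holds budding virions at the cell surface, and SAMD9 and SAMD9L are neighbouring paralogs that restrict poxviruses and slow translation. IFI6 and IFI27 are small hydrophobic proteins of the endoplasmic reticulum and mitochondria. IFI35 is a leucine-zipper-like protein that pairs with NMI, and IFI44 and IFI44L are GTP-binding-like proteins of adjacent genes.

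Promoter sequence is shown first, since it is what the interferon factors read. RefSeq start-site windows, from 250 bases before to 50 bases after an annotated start on GRCh38.p14, matched 9 of the 10 members by symbol, all but MX2, and gave 13 windows. Each was searched on both strands for the core of the response element, written as GAAA, any 2 bases, GAAA. The same repeat with 1 base between and the STAT element, written as TTC, any 3 bases, GAA, were searched as well. Matches of these patterns may overlap one another. The repeat with 2 bases between lay in 10 of the 13 windows, from 7 of the 9 members, against 3.57% of all 35116 windows. Windows of 1 gene can overlap and hold the same match. The repeat with 1 base between lay in 6 windows, from 4 members, against 3.12% of all windows. One or the other lay in 12 windows, from 8 members, against 6.40% of all windows. SAMD9L had no match to any of the patterns in its window. The STAT element lay in 5 windows, from the 4 members IFI27, IFI35, BST2 and MX1, against 7.66% of all windows. A match is a description of letters and not a measured site.

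The stretches around the repeats of 6 members are given 5′ to 3′ on the strand of the gene, to show how the copies are spaced. Capitals mark the repeats on either strand, so that the reverse strand reads as TTTC. The IFI6 stretch lies at chr1:27672266-27672358 (minus strand), upstream of the start. It holds 3 copies, of which 2 lie in a repeated stretch. The IFI35 stretch at chr17:43006758-43006783 (plus strand) holds 1 copy with 1 base between, and GENCODE v29 places it in the 5′ UTR of a longer transcript. The SAMD9 stretch at chr7:93118096-93118130 (minus strand) holds overlapping copies of both spacings. The BST2 stretch at chr19:17405735-17405770 (minus strand) holds 2 overlapping copies. The IFI27 stretch at chr14:94110618-94110660 (plus strand) holds 1 copy on each strand. The IFI44 stretch at chr1:78649761-78649788 (plus strand) holds overlapping copies on the reverse strand.
IFI6: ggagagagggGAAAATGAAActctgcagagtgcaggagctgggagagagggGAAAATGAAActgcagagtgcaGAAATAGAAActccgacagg
IFI35: ggatttcacgGAAATGAAAgtggaag
SAMD9: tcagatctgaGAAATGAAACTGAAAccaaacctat
BST2: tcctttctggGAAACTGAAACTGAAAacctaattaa
IFI27: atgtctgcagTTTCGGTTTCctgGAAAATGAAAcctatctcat
IFI44: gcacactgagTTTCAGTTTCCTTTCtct

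The RNA-seq libraries held 15831719 to 23521764 reads each, as recovered from the steps of the FPKM values. The targeted gene bore out the labels. NAT10 measured 29.3 ± 2.01 FPKM in shCtrl and 8.09 ± 0.301 FPKM in shNAT10 (mean ± SD, n = 3 libraries each), a log2 fold change of -1.84 ± 0.08 (SE). All 8 epithelial and ductal markers were expressed, with a summed level of 2840 to 3790 FPKM in shCtrl and 1540 to 1730 FPKM in shNAT10. The 10 haematopoietic markers, which cover the myeloid and plasmacytoid cells known for high interferon-induced transcripts, summed to 3.22 to 3.84 FPKM and 2.17 to 2.67 FPKM. Of these, 7 lay under 0.1 FPKM in every library, and CD3E was listed at 0. Of the 8 fibroblast and endothelial markers 5 lay under 0.1 FPKM in every library, and the list summed to 29.6 to 34.7 FPKM in shCtrl and 19.3 to 22.9 FPKM in shNAT10. The 5 acinar and endocrine markers summed to at most 0.0557 FPKM. The part of other cells in the results was not tested. The library shCtrl replicate 2 stood apart by transcript length. Over the 2190 tested genes with transcripts under 1500 bases, it lay a median of 0.31 on the log2 scale above the other 2 shCtrl libraries. Over the 3364 genes above 5000 bases its median difference was -0.28. The fold changes of the 4 tested members are therefore also given without it.

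Among the members, IFI6 and IFI35 had the highest mean FPKM in shCtrl cells. MX2 had the highest mean in shNAT10 cells, where its libraries overlapped those of IFI35. IFI6, IFI35 and SAMD9 measured lower in every shNAT10 library than in any shCtrl library, MX2 measured higher in every one, and the remaining 6 genes lay near or under 1 FPKM in both groups. A gene was tested where it reached 1 FPKM in at least 3 libraries, and counted as called where limma on log2(FPKM + 0.1) gave an adjusted p-value under 0.05. In bulk RNA, fewer cells that express a gene and less of its RNA per cell cannot be told apart. By this filter 4 members were tested and 6 were not, and SAMD9 passed through its shCtrl libraries alone. Of the 4, limma called 3 lower, where it called 21.2% of all 12982 tested genes lower. It called 1 member higher, against 20.8% of all tested genes. Beyond a log2 fold change of 1, the counts were 3 lower, against 3.57% of tested genes, and 0 higher, against 2.91%. The median log2 fold change was -1.31 over the 4 tested members and -0.01 over all tested genes. Since the members were listed from this contrast, nothing is read from these shares.

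**Figure D1:**
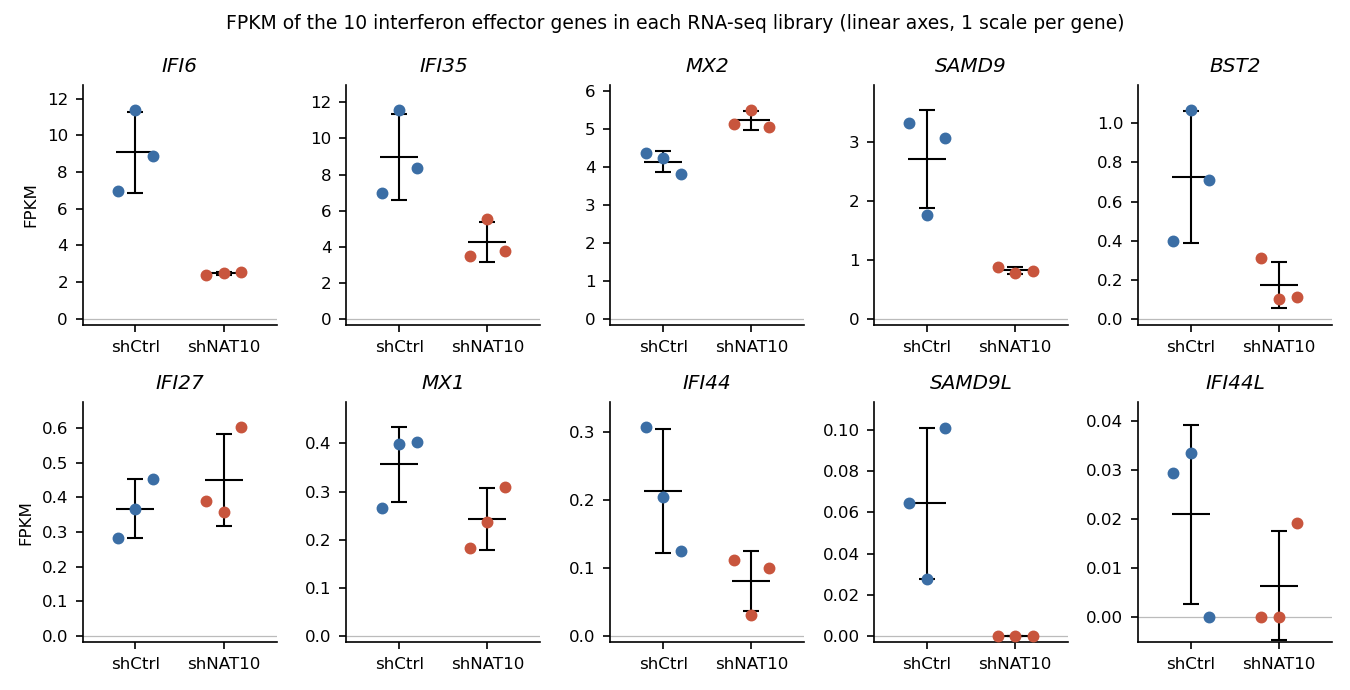
FPKM of each member in each of the 6 RNA-seq libraries, on a linear axis with its own scale per gene. Points are libraries (n = 3 per group), and bars are the mean ± SD. IFI6, IFI35 and SAMD9 are lower and MX2 is higher in every shNAT10 library, whereas IFI27, MX1 and IFI44L overlap between the groups.

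IFI6 (ENSG00000126709, chr1:27666061-27672218, minus strand) encodes an anti-apoptotic and antiviral membrane protein. Its 3 shCtrl libraries measured 6.99, 11.4 and 8.85 FPKM, and its 3 shNAT10 libraries measured 2.40, 2.51 and 2.56 FPKM. The groups did not overlap, at 9.08 ± 2.21 FPKM against 2.49 ± 0.0779 FPKM (SD, n = 3 each). On the log2 scale the difference was -1.80 ± 0.17 (SE, n = 3 against 3), a level 3.48-fold higher in shCtrl cells. The transcript is 841 bases long, and shCtrl replicate 2 was the highest library. Without it the log2 fold change was -1.62.

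IFI27 (ENSG00000165949, chr14:94104836-94116698, plus strand), the other small hydrophobic member, lay under 1 FPKM in every library. It measured 0.284, 0.365 and 0.453 FPKM in shCtrl and 0.388, 0.359 and 0.603 FPKM in shNAT10. The groups overlapped, with 56 and 58 reads in all. Adjusted for depth, the ratio of shCtrl over shNAT10 reads was 0.837 (exact 95% interval 0.569 to 1.23, counting error only). Its FPKM was scaled by a transcript of 2439 bases, while its longest coding transcript has 725 bases. If its reads came from the coding transcript, its level is understated, and the filter used the value as deposited. Which transcript the reads came from was not tested. MX2 was likewise scaled by a transcript longer than its coding one. IFI27L1 and IFI27L2, its paralogs on either side, were expressed higher. IFI27L2 measured 9.90 ± 2.65 FPKM in shCtrl and 4.29 ± 0.592 FPKM in shNAT10 (SD, n = 3 each), and fell by 1.16 ± 0.19 (SE) on the log2 scale (limma, adjusted p = 0.0033, lower in 3 of 3 libraries). Without shCtrl replicate 2 the log2 fold change of IFI27L2 was -0.96. IFI27L1 differed by -0.21 ± 0.12 (limma, adjusted p = 0.21), with overlapping groups.

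IFI35 (ENSG00000068079, chr17:43006725-43014456, plus strand) measured 6.97, 11.6 and 8.39 FPKM in shCtrl cells. In shNAT10 cells it measured 3.51, 5.56 and 3.78 FPKM. Every shNAT10 library lay under every shCtrl library, and replicate 2 was the highest of its group in both. The log2 difference was -1.05 ± 0.23 (SE), a level 2.07-fold higher in shCtrl cells. Without shCtrl replicate 2 it was -0.85, and without shNAT10 replicate 1 or 3 it was -0.92 or -0.98, so that the limit of 1 was passed with all libraries but not without these.

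SAMD9 (ENSG00000205413, chr7:93099513-93118023, minus strand) measured 3.33, 1.77 and 3.07 FPKM in shCtrl and 0.885, 0.773 and 0.817 FPKM in shNAT10. The shNAT10 libraries all lay under 1 FPKM and close together, and shCtrl replicate 2 was the lowest control library, on a transcript of 6852 bases. The log2 difference was -1.56 ± 0.25 (SE), a level 2.95-fold higher in shCtrl cells, and without shCtrl replicate 2 it was -1.84. Its paralog SAMD9L (ENSG00000177409, chr7:93130055-93148369, minus strand) lay far lower. It had 8, 4 and 17 reads in the shCtrl libraries and 0 reads in each of the 3 shNAT10 libraries. With the shNAT10 group set at a floor of 3 reads, the ratio of shCtrl over shNAT10 reads per depth was 8.38. That ratio has no interval and is not a lower bound, since it leaves out the counting error of the 29 shCtrl reads, 17 of them from 1 library. The longest exact run shared by the longest coding transcripts of the paralogs is 32 bases, and neither gene shares exon bases with another annotated gene. Whether RNA-seq reads of SAMD9 and SAMD9L were exchanged in alignment was not tested.

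MX2 (ENSG00000183486, chr21:41361943-41409390, plus strand) moved the other way. It measured 4.38, 4.24 and 3.83 FPKM in shCtrl and 5.13, 5.52 and 5.05 FPKM in shNAT10. The groups did not overlap, but the gap was small, with a log2 difference of 0.33 ± 0.09 (SE). Without shCtrl replicate 2 it was 0.34. Its call was lost without shCtrl replicate 3 (0.27) and without shNAT10 replicate 1, 2 or 3 (0.34, 0.29 and 0.35). MX1 (ENSG00000157601, chr21:41420304-41459214, plus strand), adjacent to it, lay under 1 FPKM in every library. MX1 measured 0.266, 0.399 and 0.404 FPKM in shCtrl and 0.182, 0.237 and 0.310 FPKM in shNAT10, with overlapping groups. The reads summed to 77 and 45, a ratio of 1.48 per depth (exact 95% interval 1.01 to 2.19, counting error only). An antisense gene shares 236 of the exon bases of MX1, and whether the RNA-seq counting used strand is not given in the sources used here.

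BST2 (ENSG00000130303, chr19:17402939-17405648, minus strand) passed 1 FPKM in 1 library alone. It measured 0.396, 1.07 and 0.709 FPKM in shCtrl and 0.310, 0.101 and 0.111 FPKM in shNAT10. The groups did not overlap, with 7, 22 and 17 reads against 5, 2 and 2 reads. The ratio of shCtrl over shNAT10 reads per depth was 4.43 (exact 95% interval 2.14 to 10.3, counting error only). IFI44 (ENSG00000137965, chr1:78649796-78664078, plus strand) measured 0.308, 0.205 and 0.126 FPKM in shCtrl and 0.112, 0.0305 and 0.101 FPKM in shNAT10. The groups did not overlap, and its 21 and 7 reads gave a ratio of 2.60 (1.06 to 7.24). IFI44L (ENSG00000137959, chr1:78619922-78646145, plus strand), next to it, had 3, 4 and 0 reads in shCtrl and 0, 0 and 2 reads in shNAT10, which overlap, and gave a ratio of 3.03 (0.577 to 29.9). At this depth no difference could be shown for IFI44L.

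Counting non-overlap in place of calls, every shNAT10 library lay under every shCtrl library for 6 members, against 16.8% of the 29695 genes above 0 in at least 1 library. It lay over every shCtrl library for 1 member, against 15.6%, and the groups overlapped for 3. On the recovered reads, with genes kept at 10 reads in all, 9 members entered the fit. BST2 and SAMD9L joined IFI6, IFI35 and SAMD9 in being called lower, 5 in all, where 15.5% of 20203 genes were. With 9 and 0 shNAT10 reads, BST2 and SAMD9L passed this filter through their shCtrl reads, and the fit was added after seeing the data. MX2 was the 1 called higher, where 15.0% were. As above, nothing is read from these counts.

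In shCtrl cells the order of the mean levels per length was IFI6, IFI35, MX2, SAMD9, BST2, IFI27, MX1, IFI44, SAMD9L and IFI44L, from 9.08 FPKM down to 0.021 FPKM. IFI6 and IFI35 overlapped in their shCtrl libraries, as did BST2, IFI27 and MX1 with the next in order, and SAMD9L with IFI44L. IFI35 was above MX2, MX2 above SAMD9, SAMD9 above BST2 and IFI44 above SAMD9L in every shCtrl library. The FPKM of MX2 was scaled by a retained-intron transcript of 4064 bases, longer than its longest coding transcript of 3042 bases. That of IFI27 was scaled by 2439 bases, against 725 bases for its longest coding transcript. The order was not recomputed on coding transcript lengths, which could change it. In shNAT10 cells MX2 stood first by mean, ahead of IFI35, IFI6 and SAMD9, but IFI35 was above it in replicate 2 (5.56 against 5.52 FPKM). The mean of the centred log2 values of the 4 tested members, 3 lower and 1 higher, was 0.44 to 0.57 in the shCtrl libraries and -0.57 to -0.41 in the shNAT10 libraries. Outside the interferon and marker lists, the 5 genes nearest to this mean over the 6 libraries were PORCN, HES2, SYT7, NPTXR and TOMM20. Their root mean square differences from it were 0.035 to 0.054 on the log2 scale.

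The pathway around the members was counted over lists of 106 genes, of which 105 were in the table and 55 were tested. Of these, 36 fell, 3 rose and 16 did not pass the test (limma, adjusted p under 0.05), and the median log2 fold change was -0.63. These counts stand beside the 21.2% and 20.8% of all tested genes. The lists were chosen with earlier results of these data known, so the counts here and below are a description and nothing is read from them. Of the 21 ligand genes 16 were at 0 in every library and 0 were tested. IFNB1 was listed at 0 in all 6 libraries, and IFNL1 measured at most 0.221 FPKM.

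Receptor and signalling genes were mostly expressed. Of 11 tested, 5 fell and 1 rose. IFNAR1, a chain of the type I receptor, fell from 12.2 ± 0.911 to 7.36 ± 0.358 FPKM (SD, n = 3 each), a log2 fold change of -0.72 ± 0.08 (limma, adjusted p = 0.00086, lower in 3 of 3 libraries). STAT2 fell by 0.29 ± 0.07 (limma, adjusted p = 0.02, lower in 3 of 3 libraries), a call that was lost on the TPM scale and without shCtrl replicate 3 or shNAT10 replicate 1 or 2. IRF9 differed by -0.65 ± 0.23 and did not pass the test (limma, adjusted p = 0.06), though its groups did not overlap. It passed with a pseudocount of 1, with no trend and on recovered reads (limma, adjusted p = 0.013 to 0.046). IRF9 reached 1 FPKM in the shCtrl libraries alone.

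Of the 10 regulators tested, 4 fell and 1 rose. IRF1, an activator of effector genes, fell from 5.61 ± 0.628 to 2.07 ± 0.126 FPKM (SD, n = 3 each), a log2 fold change of -1.39 ± 0.11 (limma, adjusted p = 0.00023, lower in 3 of 3 libraries). USP18, which removes ISG15 and dampens receptor signalling, fell by 0.69 ± 0.17 (limma, adjusted p = 0.016, lower in 3 of 3 libraries), a call lost without shCtrl replicate 3. IRF7 differed by -0.10 ± 0.15 (limma, adjusted p = 0.61), with overlapping groups, and by 0.06 without shCtrl replicate 2. Of the 8 sensors tested, 4 fell and 1 rose. TMEM173 (STING) fell from 6.79 ± 0.887 to 0.961 ± 0.0828 FPKM, a log2 fold change of -2.69 ± 0.14 (limma, adjusted p = 5.7e-05, lower in 3 of 3 libraries). IFIH1 (MDA5) fell by 1.02 ± 0.14 (limma, adjusted p = 0.0018, lower in 3 of 3 libraries). DDX58 (RIG-I) rose by 0.27 ± 0.09 (limma, adjusted p = 0.049, higher in 3 of 3 libraries), a call lost when any of shCtrl replicate 3 or the shNAT10 libraries was left out. The call was also lost without the filter on FPKM, with no trend and on reads with at least 10 in all (limma, adjusted p = 0.053 to 0.093).

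The other effector genes were the longest list. Of 26 tested, 23 fell, 0 rose and 3 did not pass the test, with a median log2 fold change of -0.84. Of the 23, 12 fell by more than 1, where 3.57% of all tested genes did. ISG15, the ubiquitin-like modifier, fell from 47.0 ± 14.8 to 19.6 ± 2.67 FPKM, a log2 fold change of -1.21 ± 0.22 (limma, adjusted p = 0.0053, lower in 3 of 3 libraries). Its shCtrl libraries measured 33.0, 62.5 and 45.4 FPKM, with replicate 2 again the highest. Without that library the log2 fold change of ISG15 was -0.98. It was -0.95 once length and GC content of the transcripts were corrected for. OAS1, which makes the activator of RNase L, fell by 1.06 ± 0.23 (limma, adjusted p = 0.01) but entered the test through its shCtrl libraries alone. IFITM1 fell by 1.66 ± 0.41 (limma, adjusted p = 0.017). IFIT1, which binds viral RNA ends, fell by 0.85 ± 0.10 (limma, adjusted p = 0.00071), and all of these were lower in 3 of 3 libraries. The call of IFITM1 was lost without shNAT10 replicate 1 or 3.

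**Figure D2:**
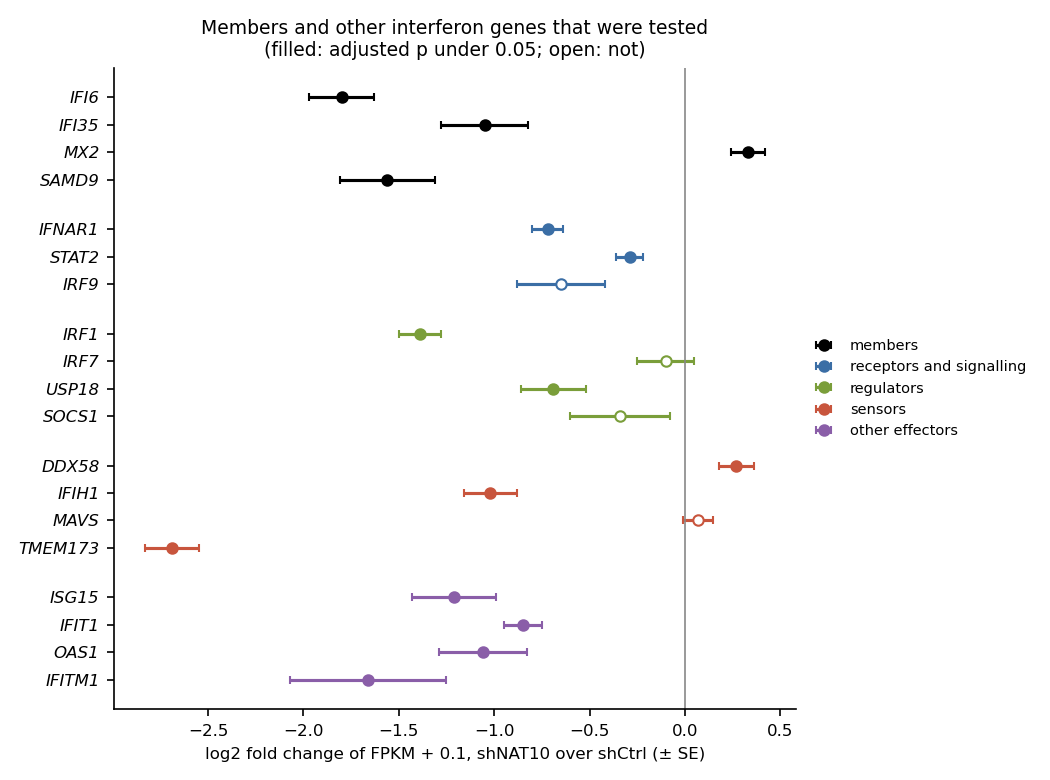
Log2 fold change (shNAT10 over shCtrl) with its SE for the 4 tested members and other interferon genes by role, from limma on 3 libraries per group. Filled circles passed an adjusted p-value of 0.05. TMEM173 lies furthest left, and MX2 and DDX58 are the filled circles right of 0.

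The genes next to the members were looked up as well. The nearest expressed protein-coding gene on each side within 500 kb was found at 6 of the 7 loci of members, 12 genes in all, and none at the IFI44L and IFI44 locus. Of these 4 fell, 4 rose and 4 did not pass the test, beside 21.2% lower and 20.8% higher among all tested genes, and nothing particular to the loci is read from so few. VAT1, 0.149 kb from IFI35, rose by 0.56 ± 0.06 on the log2 scale (SE, limma, adjusted p = 0.00058, higher in 3 of 3 libraries), where IFI35 was lower. CDK6 rose by 1.21 ± 0.23 (limma, adjusted p = 0.0061) and VPS50 fell by 0.75 ± 0.10 (limma, adjusted p = 0.0017) on either side of the SAMD9 pair. Without shCtrl replicate 2 the log2 fold change of CDK6 was 0.95. BACE2 rose by 0.33 ± 0.08 (limma, adjusted p = 0.016) and TMPRSS2 by 1.1 ± 0.14 (limma, adjusted p = 0.0012) on either side of the MX pair, where MX2 was higher as well. MVB12A, 0.074 kb from BST2, fell by 0.65 ± 0.14 (limma, adjusted p = 0.011). AHDC1 and FAM76A beside IFI6 did not pass the test (limma, adjusted p = 0.19 and 0.098). RPL27 before IFI35 fell by 0.58 ± 0.15 (limma, adjusted p = 0.018), a call lost without shNAT10 replicate 1 or 3. The call of BACE2 was lost without shNAT10 replicate 2 or 3, and its fold change was 0.14 once length and GC content of the transcripts were corrected for (limma, adjusted p = 0.24).

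In acRIP-seq, 1 list of peaks per group was deposited, pooled over the libraries, so that replicates cannot be compared. For each peak the deposited fold enrichment (IP against input) is given, and the reads behind them are not in the lists. The medians were 49.3 over the 16892 shCtrl peaks and 45.2 over the 15813 shNAT10 peaks. Members carried 11 peaks in shCtrl and 10 peaks in shNAT10, on 6 genes each. IFI6, IFI44, SAMD9, SAMD9L and BST2 had peaks in both lists, IFI35 in shCtrl alone and MX2 in shNAT10 alone. MX1, IFI27 and IFI44L had no listed peak.

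Of the 4 members with a mean level of at least 1 FPKM over the 6 libraries, 3 had a peak in shCtrl, against 49.9% of the 12834 genes at that level, and 3 in shNAT10, against 48.0%. Of the 6 members under 1 FPKM, 3 had a peak in shCtrl, against 8.75% of the 16861 genes above 0 and under 1 FPKM, and 3 in shNAT10, against 8.58%. Peaks of both groups that shared at least 1 exonic base on the strand of the gene were found on IFI6 and BST2. That is 1 of 4 members at the higher level, against 17.0% of such genes, and 1 of 6 at the lower level, against 2.15%. With so few members these counts are descriptions.

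On IFI6 the shCtrl peak (fold enrichment 75.4) ran from base 215 to 781 of the 841-base transcript, across the end of the coding sequence. The shNAT10 list had 2 peaks there, 1 at bases 305 to 811 (fold enrichment 387), which shared 477 bases with it, and 1 at bases 61 to 245 (57.5), which shared 31 bases with it. On IFI35 the shCtrl peak (358) had 184 of its 240 bases in exon 1 of the longest coding transcript, mostly in the 5′ UTR. Its other bases lay outside that transcript. On BST2 a shCtrl peak in the 3′ UTR had a fold enrichment of 4480, within the top 0.266% of its list, and no shNAT10 peak overlapped it. Another shCtrl peak (1270) had 190 of its 266 bases in the coding sequence and the rest outside the longest coding transcript. It shared 237 bases with the shNAT10 peak (759). On IFI44 the shCtrl peak (18.0) and the shNAT10 peak (1420) lay on different stretches of the transcript, in the coding sequence for the first and across its end for the second. RNA-seq held only 46 reads of BST2 in the shCtrl group and 7 reads of IFI44 in the shNAT10 group. The part of a low input in these high ratios was not tested, so their ranks are not read as levels of ac4C. On MX2 a shNAT10 peak lay partly in exon 11 of 14 (470), and another (223) lay outside the longest coding transcript, on one with a retained intron.

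SAMD9 and SAMD9L carried the most peaks. The 3 shCtrl peaks of SAMD9, at bases 1408 to 1587 (fold enrichment 488), 2755 to 3024 (508) and 3652 to 3982 (1850) of its transcript, lay in exon 3 within the coding sequence. Its shNAT10 peak (425) lay in the 3′ UTR, 1555 bases from the nearest of them. SAMD9L had shCtrl peaks with fold enrichments of 429, 108 and 93.7, of which the first held the second whole over 179 bases. Its shNAT10 peaks had fold enrichments of 1800, 1800 and 1290, of which the first 2 shared 209 bases, and all lay in the coding sequence of exon 5. These shNAT10 peaks stood on a gene with 0 reads in the 3 shNAT10 RNA-seq libraries, and 29 reads in the 3 shCtrl libraries. The labels give different library protocols for both assays, and the part of this in the difference was not tested.

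A shCtrl peak of SAMD9 and a shNAT10 peak of SAMD9L lay on corresponding stretches of the paralogs, and their coding sequences are shown for that reason. The SAMD9 peak is chr7:93104781-93104960 and the SAMD9L peak is chr7:93134551-93134821, both on the minus strand of GRCh38 and read from the GENCODE transcripts. Capitals mark runs of at least 12 bases that occur in both, 64 bases in each. The longest shared run has 27 bases, and the labels give longer reads for acRIP-seq. The reads behind the peaks are not in the lists, and whether reads of SAMD9 were placed on SAMD9L, or the reverse, was not tested.
SAMD9: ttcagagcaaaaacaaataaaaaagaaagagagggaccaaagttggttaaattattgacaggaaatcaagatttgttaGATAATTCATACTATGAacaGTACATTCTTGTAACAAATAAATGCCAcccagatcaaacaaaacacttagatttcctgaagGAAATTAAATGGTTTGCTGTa
SAMD9L: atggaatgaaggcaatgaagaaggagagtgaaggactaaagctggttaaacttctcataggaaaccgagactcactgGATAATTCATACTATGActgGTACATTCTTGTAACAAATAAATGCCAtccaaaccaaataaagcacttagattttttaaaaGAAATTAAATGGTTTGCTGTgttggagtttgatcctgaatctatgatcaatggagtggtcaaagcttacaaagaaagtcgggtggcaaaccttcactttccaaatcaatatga

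Across the processing settings the values of the tested members kept their direction. IFI6 lay between -1.97 and -1.51 on the log2 scale over 17 alternatives, IFI35 between -1.25 and -0.83 over 17, SAMD9 between -1.84 and -1.0 over the 16 in which it was tested, and MX2 between 0.27 and 0.44 over 17.

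**Figure D3:**
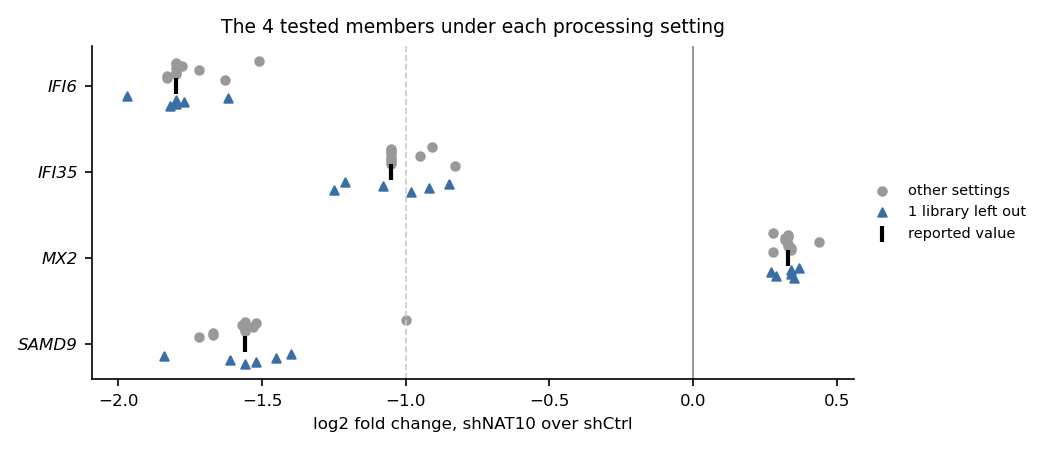
Log2 fold change (shNAT10 over shCtrl) of the 4 tested members under each processing setting. Black bars are the reported values, grey circles other settings and blue triangles fits with 1 of the 6 libraries left out, and the dashed line marks -1. IFI6 and SAMD9 stay at or beyond the line, IFI35 falls on both sides of it, and MX2 stays above 0.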

How the data were processed

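The members and the gene lists were chosen with earlier results of these data known. RNA-seq (3 shCtrl and 3 shNAT10 libraries) and acRIP-seq (1 peak list per group from 3 IP and 3 input libraries) of PANC-1 cells were used. Per the labels, the submitters' processing notes name HISAT2 (version 2), HTSeq 0.11.0, DESeq2 1.22.2 and GRCh38. The authors deposited FPKM values per gene and library. For each peak the deposited lists give the fold enrichment as a ratio of IP over input, its p-value and the log10 of that p-value, which was handled as a score because it runs far below the range of log values. The peak caller is not given in the sources used here.

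FPKM was taken to be scaled by the length of the longest GENCODE v29 transcript of a gene, and library totals were read from its steps. That length was kept for 97.5% of detected genes. This share includes any gene for which no length gave whole reads within 0.1 read. For the rest, the nearest length that gave whole reads was used. limma 3.58.1 (R 4.3.3, lmFit and eBayes with trend) was run on log2(FPKM + 0.1) for the 12982 genes that reached 1 FPKM in 3 or more libraries, and p-values were adjusted over all of them (Benjamini-Hochberg). Fold changes on this scale understate the change of low genes. In a simulation of this comparison over 12982 genes with 200 changed by 2 on the log2 scale, 190 were called, besides 14 unchanged genes. The draws were independent and normal, with fewer and larger changes than most of those called in the data. They checked that the fit runs and do not give its error rate or power here.

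Exact intervals (95%) of read ratios are conditional binomial. Peaks were placed on the longest coding transcript and, where most of their bases lay elsewhere, on the transcript of the gene that held most. Named genes were the members, NAT10, up to 4 genes per list chosen by role, the paralogs of IFI27, the nearest expressed neighbours and the 5 genes nearest in pattern. Alternatives were a pseudocount of 1, no filter or one at 5 FPKM, TPM, quantile or median scaling, blocking on the replicate number, a fit with no trend, voom on recovered reads and each library left out. For peaks they were the top 50% by fold enrichment or by p-value, and a reciprocal overlap of 50%. Correction for transcript length and GC content, and voom on reads for genes with at least 10 reads, were added after seeing the data. The same numbers in both groups did not pair the libraries. Python 3.11.15 with pandas 2.3.3, NumPy 2.4.6, SciPy 1.17.1 and matplotlib 3.10.9 was used. Some items of the named genes and markers are not reported here.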

Additional observations from a re-analysis of the deposited data

How the results depend on the processing

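With 3 libraries per group and 0 to 77 reads per group behind the 6 untested members, their ratios carry wide counting intervals. The count of members called lower, 3, and of those beyond a log2 fold change of 1, also 3, became 5 each on reads with at least 10 in all. Both were 2 at a minimum of 5 FPKM, and the second was also 2 with a pseudocount of 1, on the TPM scale, with the length and GC correction and without shCtrl replicate 2 or shNAT10 replicate 1 or 3. The count called higher, 1, became 0 without the filter on FPKM and ranged from 0 to 1 with a library left out. Over the interferon lists, the count called higher, 3, became 1 without the filter and ranged from 0 to 3 with a library left out. Over all genes, 1765 to 3318 were called lower and 1774 to 3303 higher with a library left out, against 2751 and 2699. On the TPM scale these were 2075 lower and 3355 higher. Members with overlapping peaks, 2, became 1 at a reciprocal overlap of 50%. IRF7 ranged from -0.22 to 0.06 with a library left out. IRF7 changed sign on the TPM scale (0.0), without shCtrl replicate 2 (0.06) and with the length and GC correction (0.17), and MAVS with that correction (-0.12). The causes were not tested. Over 618 values of single genes under alternatives, 584 kept their direction and side of the threshold, 24 lost and 6 gained a call. With the replicate number as a block, 3 members were called lower and 1 higher, and 2603 genes lower and 2524 higher. Deviations of libraries of the same number correlated at -0.04, 0.06 and 0.11.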

Other observations

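Peaks on the other interferon genes were counted in the same way. Of the 53 listed genes with a mean level of at least 1 FPKM, 42 (79.2%) had a peak in the shCtrl list, 37 (69.8%) in the shNAT10 list and 17 (32.1%) had peaks of both lists that overlapped. Over all 12834 genes at that level the shares were 49.9%, 48.0% and 17.0%. Listed genes were not matched to these by expression level or transcript length. The share with a peak depends on level, at 8.75% in shCtrl for genes under 1 FPKM, so no enrichment is read from the difference. All 10 receptor and signalling genes at that level had a peak in each list, and 7 of them had overlapping peaks. Among the 26 other effector genes at that level, 17 had a peak in shCtrl and 16 in shNAT10, with overlap on 7. Each list is pooled over its libraries, so these counts have no replicate error and were not tested.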
